A study of Mus musculus with 4 samples.

Results

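The response described here is that of wild-type (WT) mouse macrophages to interleukin 4 (IL-4), read from 2 of the 4 RNA-seq libraries of the series. The cells were bone marrow-derived macrophages, grown from marrow for 7 days with M-CSF at 20 ng/mL, the growth factor that drives macrophage differentiation. One WT library is labelled 0 h and the other 24 h, and IL-4 was used at 20 ng/mL for 24 h. The 0 h library carries the same treatment tag as the 24 h one and was read, from its time, as cells without IL-4. The other 2 libraries came from macrophages labelled OGT knockout at the same times, and are set beside the WT pair as a second pair with no library in common. OGT is the enzyme that adds O-linked N-acetylglucosamine to proteins, and how its gene was deleted is not given in the sources used here. Its transcript, Ogt, had a level of 27.4 and then 29.8 FPKM in WT, and of 14.2 and 14.5 in the knockout libraries.

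Of 52476 gene names in the table, 11687 reached 1 FPKM in at least 1 of the WT libraries and were kept. FPKM is the fragment count scaled to transcript length and library size, so levels can be compared between genes. A difference is the log2 ratio of FPKM + 1 at 24 h to that at 0 h, positive where the 24 h library was higher. Each group is 1 library, so no difference can be set against the spread between cultures, and no test was made. The labels name no 24 h culture that went without IL-4, so 24 h of IL-4 and 24 h more in culture cannot be told apart. In whole-culture RNA, fewer cells of a type and less RNA per cell also cannot be told apart.

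IL-4 is a cytokine of type 2 immunity, made by T helper 2 cells, basophils and eosinophils in worm infection, allergy and tissue repair. It binds the IL-4 receptor alpha chain, paired with the common gamma chain or IL-13 receptor alpha 1, and the JAK kinases there phosphorylate STAT6. STAT6 dimers enter the nucleus and bind a palindrome with a spacer of 4 bases, and the cells take on the state called alternative, or M2, activation.

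The promoters of Retnla, Pdcd1lg2 and Tmem26 are shown because they are among the named genes with the largest positive differences whose window held that STAT6 palindrome. Each window runs from 250 bases before to 50 bases after the start of the transcript and is taken from RefSeq on GRCm38.p6. They lie at chr16:48842359-48842658, chr19:29410669-29410968 and chr10:68723496-68723795, each on the + strand, and the capitals mark the site, searched as TTC and GAA with 4 bases between.

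Retnla: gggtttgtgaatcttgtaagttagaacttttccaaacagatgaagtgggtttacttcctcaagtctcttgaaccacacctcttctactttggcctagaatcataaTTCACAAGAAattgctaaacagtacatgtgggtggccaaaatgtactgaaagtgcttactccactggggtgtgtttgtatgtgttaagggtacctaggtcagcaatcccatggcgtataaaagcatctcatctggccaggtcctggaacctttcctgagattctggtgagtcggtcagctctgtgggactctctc
Pdcd1lg2: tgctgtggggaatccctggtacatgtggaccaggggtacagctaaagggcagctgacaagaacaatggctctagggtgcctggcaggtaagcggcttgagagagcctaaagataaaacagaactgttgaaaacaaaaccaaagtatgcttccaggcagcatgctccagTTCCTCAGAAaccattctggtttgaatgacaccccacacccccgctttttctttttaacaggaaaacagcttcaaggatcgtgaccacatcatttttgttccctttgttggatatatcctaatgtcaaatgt
Tmem26: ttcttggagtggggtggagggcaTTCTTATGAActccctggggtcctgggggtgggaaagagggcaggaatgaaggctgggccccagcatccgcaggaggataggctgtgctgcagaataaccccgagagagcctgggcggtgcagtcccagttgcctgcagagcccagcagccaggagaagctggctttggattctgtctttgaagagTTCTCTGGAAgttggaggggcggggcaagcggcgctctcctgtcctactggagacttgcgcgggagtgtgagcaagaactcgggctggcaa

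The site of Retnla begins 145 bases before the start of the transcript, that of Pdcd1lg2 82 bases before it, and those of Tmem26 227 and 41 bases before it. The promoters of Ifit3 and Ifit1, in the run of Ifit genes on chromosome 19, are shown for the other side of the response. They lie at chr19:34583279-34583578 and chr19:34640639-34640938 on the + strand. The capitals mark the interferon-stimulated response element (ISRE), searched as TTTC and TTTC with 2 bases between, which interferon-activated STAT and IRF complexes bind.

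Ifit3: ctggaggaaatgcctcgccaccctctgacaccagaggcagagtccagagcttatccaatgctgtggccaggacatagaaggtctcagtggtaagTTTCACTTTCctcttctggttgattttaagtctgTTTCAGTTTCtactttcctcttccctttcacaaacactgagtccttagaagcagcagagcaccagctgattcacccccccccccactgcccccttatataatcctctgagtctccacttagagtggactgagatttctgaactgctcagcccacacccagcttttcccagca
Ifit1: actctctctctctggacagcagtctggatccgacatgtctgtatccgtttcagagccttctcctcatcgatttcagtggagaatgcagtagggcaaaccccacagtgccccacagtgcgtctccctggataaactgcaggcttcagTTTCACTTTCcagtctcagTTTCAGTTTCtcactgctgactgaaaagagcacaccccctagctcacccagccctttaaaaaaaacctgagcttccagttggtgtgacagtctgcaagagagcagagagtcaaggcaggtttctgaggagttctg

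Both windows held the same pair of ISRE sequences in the same order, beginning 156 and 122 bases before the start in Ifit3 and 104 and 85 bases before it in Ifit1. The near-identical gene Ifit3b held the pair as well. These matches are a description of the letters in each window, and binding was not measured.

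At 24 h, 556 of the 11687 kept genes were at least 2-fold higher than at 0 h (4.76%) and 732 were at least 2-fold lower (6.26%). The median difference over all kept genes was 0.02, and the middle of the distribution was narrow, from −0.29 at the lower quartile to 0.33 at the upper. Of all kept genes 52.0% had a positive difference and 48.0% a negative one. At 4-fold the counts were 101 higher and 129 lower, and at 16-fold 11 and 6. The longest reach was thus on the positive side although more genes were lower. Among genes whose higher value was 1 to 3 FPKM, 2.32% were 2-fold higher and 3.77% lower, and among genes at 100 FPKM or more, 12.6% and 12.01%. The share past 2-fold therefore grew with the level of the gene, on a scale that pulls low values toward 0.

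The called genes also held a sizeable part of all RNA, given here as a description since they were chosen for this difference. The 556 higher genes together held 3.78% of all FPKM at 0 h and 13.9% at 24 h. The 732 lower genes held 19.1% at 0 h and 6.199% at 24 h. Retnla, the gene of the secreted protein RELM alpha, was at 2.17 FPKM at 0 h and 12961 FPKM at 24 h, and alone made up 3.67% of the 24 h total. Lyz2, the lysozyme gene of macrophages, stood at 15193 FPKM at 0 h, or 4.49% of the total, and at 4246 FPKM, or 1.20%, at 24 h. The single most abundant member of the lower genes at 0 h was thus exceeded at 24 h by Retnla. Fth1, the ferritin heavy chain, went from 11334 to 4957 FPKM, and Selenop, a selenium carrier, from 2555 to 421. Psap, the precursor of lysosomal saposins, was the second largest gain in FPKM, from 5551 to 8001, and stayed under 2-fold.

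**Figure D1:**
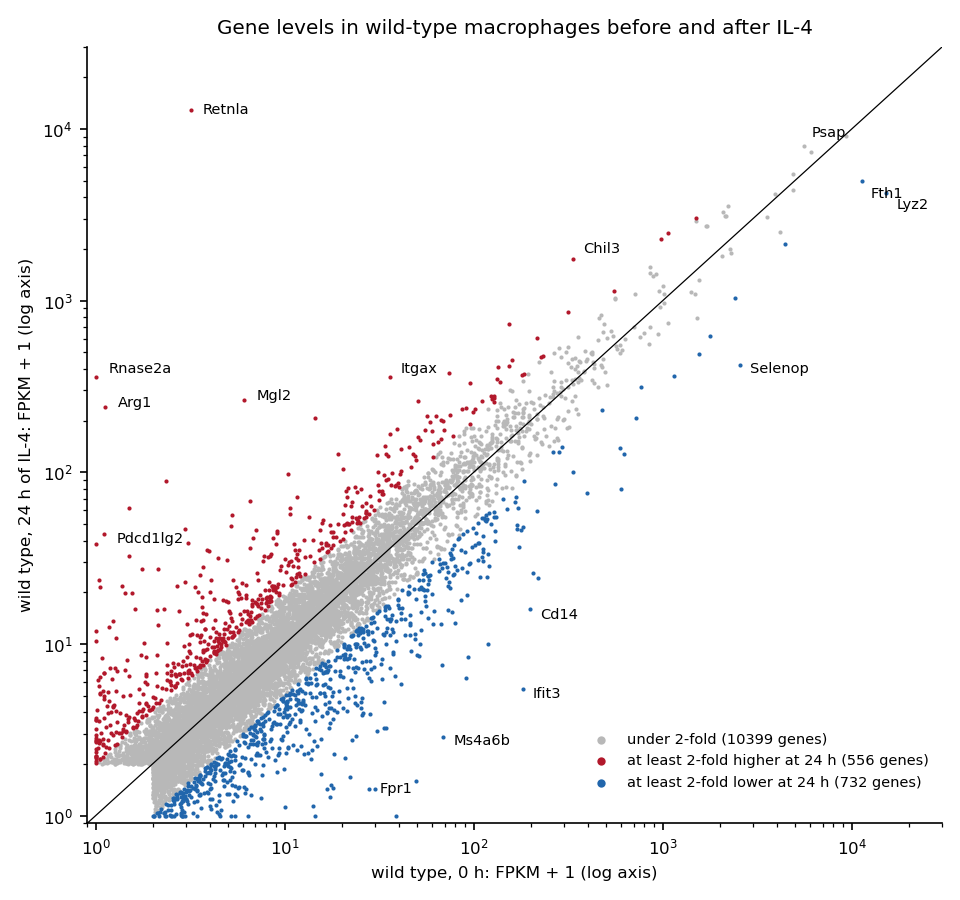
Level of each kept gene in the WT library at 0 h (x axis) and at 24 h of IL-4 (y axis), as FPKM + 1 on log axes. Each dot is 1 gene, red where at least 2-fold higher (556) and blue where at least 2-fold lower (732). Retnla stands alone at the upper left and Lyz2 lies under the line of equality among the most abundant genes.

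Of the other markers of the state, Arg1 and Pdcd1lg2 were under 1 FPKM at 0 h and Mgl2 was already detected. Arg1, which encodes arginase 1, a maker of ornithine and urea, stood at 0.12 FPKM and then 240.4 (log2 difference 7.75). Mgl2, a galactose-binding lectin, stood at 5.06 and then 264 (5.45). Pdcd1lg2, which encodes PD-L2, a ligand of the T cell checkpoint PD-1, stood at 0.11 and then 42.4 (5.29). In all, 16 genes went from under 1 FPKM to 10 FPKM or more. They include the eosinophil-type ribonuclease gene Rnase2a (listed at 0, then 358), Il4i1, an amino acid oxidase (0.50, then 60.9), Socs1 (0.43, then 18.7) and the arginine transporter Slc7a2 (0.38, then 20.8). Eno1b, a copy of the enolase gene Eno1, and Scn3a, a sodium channel, were listed at 0 before 36.98 and 10.8 FPKM. Another 12 genes went the other way, from 10 FPKM or more to under 1. Among these were the formyl peptide receptor genes Fpr1 (27.0, then 0.42) and Fpr2 (16.3, then 0.28), the orphan receptor Adgre4 (29.1, then 0.42), the sialic acid lectin Siglece (21.1, then 0.69) and Nfkbiz, a nuclear cofactor of NF-kB (15.7, then 0.42). Of these 12 genes, 6 encode receptors or receptor-like proteins of the cell surface. Exons of Il4i1, Slc7a2 and Fpr2 overlap those of other genes, so their values are less certain, as are those of near-identical copies such as Eno1b. The same overlap touches these other named genes: Selenop, Pet117, Stat6, Cish, Gadd45a, Nr1d1, Cxcl10, Ebi3, Il31ra, Il27ra, Pilrb1, Pilra, Pilrb2, Ms4a6b, Ms4a4c, Stab1, P2ry1, P2ry12, P2rx7, Irf7, Mpo, H2-DMa, Ciita, Cd74, Ifi30, Paox, Pfkp, Glul, Scd2, Idi1, Cyp51, Apoc2, Ptgs1, Dkc1, Pdia4, Pdia6, Hsp90b1, Ccnd1, Cdkn1a, Fn1, Thbs1, Adam8, Sgsh, Slc30a4 and Csf1r.

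**Figure D2:**
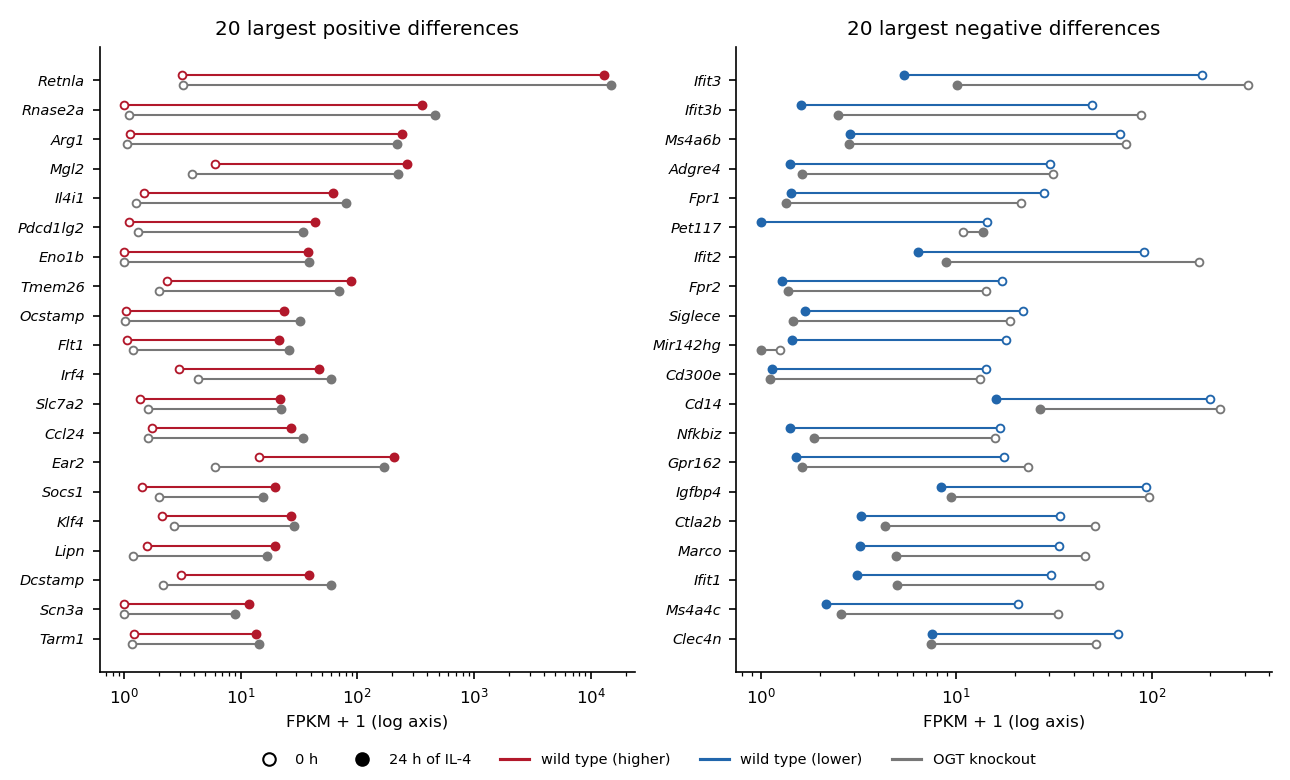
FPKM + 1 (log axis) at 0 h (open circles) and 24 h of IL-4 (filled circles) for the 20 genes with the largest positive and the 20 with the largest negative difference in WT, with the OGT-knockout pair in grey beneath each. WT is red or blue. The knockout bars run the same way except for Pet117, which was at 9.83 and 12.7 FPKM in the knockout. Mir142hg was under 1 FPKM in both knockout libraries.

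The chain that receives IL-4 was not uniformly higher. Il4ra, the receptor alpha chain, was at 34.4 FPKM at 0 h and 15.6 at 24 h (−1.09, with overlapping exons), and Il13ra1 at 7.84 and 1.10 (−2.07). Stat6 itself was at 51.9 and 50.2 FPKM (−0.05). Of the 14 kept members, 3 were 2-fold higher and 3 lower. In the knockout pair 3 of 14 were higher and 1, Il13ra1 (−1.97), was lower, so Il4ra was not 2-fold lower there. The 3 higher members all encode feedback inhibitors of cytokine receptors, namely Socs1 (3.79), Cish (3.41) and Socs2 (2.61). The fourth inhibitor of this kind past 2-fold, Socs3, which restrains signalling through gp130, was on the other side, at 2.18 and then 0.49 FPKM (−1.10). Those levels were low, and none of 8 SOCS and CISH genes was 2-fold lower in the knockout pair. Il6st, which encodes gp130 itself, was at 23.1 and then 76.1 (1.68).

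Transcription factors linked to alternative activation had a median of 0.75, against 0.02 for all kept genes, and 10 of 27 were 2-fold higher and 3 lower. Irf4 went from 1.97 to 46.0 FPKM (3.98), Klf4 from 1.13 to 26.2 (3.67) and Nfil3 from 5.58 to 67.4 (3.38). Myc, which drives growth, went from 1.98 to 21.8 (2.94), and Batf3, known from dendritic cells, from 2.70 to 27.0 (2.92). These 5 were all low at 0 h. The early response list gave 10 higher of 27 and 1 lower, with Fosl2 at 2.57 and 24.0 FPKM (2.81), the MAP kinase phosphatase Dusp4 at 2.33 and 20.5 (2.69) and Egr2 at 9.69 and 61.1 (2.54). Gadd45a, a stress gene, was the member that was lower (17.8, then 2.999). Among 19 nuclear receptors, Pparg was at 20.4 and 70.3 FPKM (1.73) and Vdr, the vitamin D receptor, at 0.23 and 3.26 (1.79), while the clock repressors Nr1d1 (−1.31) and Nr1d2 (−1.23) were lower. The 261 kept zinc finger (Zfp) genes had a median of −0.12 and few members past 2-fold. There were 3 higher (1.15%) and 5 lower (1.92%), against 4.76% and 6.26% of all kept genes. Levels in this family were low, all 407 Zfp genes found summing to 1347 FPKM at 0 h. Of kept genes at 1 to 3 FPKM, 2.32% were higher and 3.77% lower.

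Of 25 kept genes of a textbook IL-4 list, 17 were 2-fold higher and 1 was lower, with a median of 2.59. The list was drawn up with these results known, and its count is no independent evidence of direction. The lower member was Cxcr4, the receptor for CXCL12, at 72.2 and then 14.8 FPKM (−2.22). The Ear and ribonuclease A genes, a family that includes eosinophil granule proteins, had 5 of 9 members higher, Ear2 among them (13.4, then 205.7 FPKM). Of 6 eosinophil markers 4 were kept, none was higher and 1, the granule gene Prg2, was lower (27.7, then 6.10 FPKM), and their summed level was 35.2 and then 16.7. Ccr3, the eotaxin receptor gene, was at 4.56 and then 8.54, under 2-fold, and Epx was under 1 FPKM in both libraries. Their part in the result was not tested. The resistin-like and chitinase-like genes split, with Chil3 at 334 and then 1738 FPKM (2.38), but Retnlg at 14.5 and then 1.81 (−2.47) and Chil1 at 6.36 and then 1.25 (−1.71). Retnlg is a neutrophil gene.

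Chemokine ligands divided by class. Of 10 kept CC ligands, 7 were 2-fold higher and 2 lower (median 1.498), and of 8 kept CXC, XC and CX3C ligands none was higher and 4 were lower (−1.004). Ccl24, which attracts eosinophils, went from 0.76 to 26.2 FPKM (3.95), and the monocyte chemokine Ccl7 from 1.11 to 14.7 (2.89). Ccl17, a ligand of CCR4 on T helper 2 cells, reached 3.35 from 0.14 (1.93). Ccl5, an interferon-responsive chemokine, was lower at 9.40 and then 1.499 (−2.06), and Cxcl10, which recruits T helper 1 cells, went from 3.11 to 0.26 (−1.71). On the receiving side 8 of 18 chemokine and chemoattractant receptors were lower and 1, the leukotriene B4 receptor Ltb4r1 (3.41, then 9.36), was higher. The lower ones were led by Fpr1 (−4.30), Fpr2 (−3.75) and Cxcr4.

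Interleukin genes were lower or under 2-fold, and cytokine receptor genes had calls both ways. None of the 9 kept interleukin and colony-stimulating factor genes was higher and 6 were lower (median −1.33). Ebi3, a subunit of IL-27 and IL-35, was at 75.5 and then 14.4 FPKM (−2.32), and the anti-inflammatory cytokine gene Il10 at 4.13 and then 0.81 (−1.51). None of 5 TNF ligand genes passed 2-fold, and of 15 TGF-beta, BMP and growth factor ligands 3 were higher and 2 lower. Of 33 cytokine receptor genes, 7 were higher and 6 lower. Il1rl1, the IL-33 receptor, was at 0.19 and then 6.196 FPKM (2.59), Il31ra at 0.02 and then 5.13 (2.58), and Il27ra, the receptor for the cytokine that holds the Ebi3 subunit, at 0.73 and then 7.66 (2.32). Il1r1, Il1rl2 and Il1rl1 lie next to each other on chromosome 1 and were all 2-fold higher, as were the neighbours Il6st and Il31ra on chromosome 13.

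Receptors of the innate cell surface were 2-fold lower in a large share of their lists. Across 5 lists (C-type lectins, Siglecs, paired and Lilr type receptors, Fc receptors and Ms4a proteins), 32 of 73 kept genes were lower and 1, Mgl2, was higher. The paired receptors alone gave 14 lower of 28, with Cd300e at 13.2 and then 0.14 FPKM (−3.64) and the neighbours Pilrb1, Pilra and Pilrb2 at −2.69, −2.51 and −2.47. Of the 8 Ms4a genes 5 were lower, Ms4a6b (67.9, then 1.88) and Ms4a4c (19.7, then 1.16) by the most. The lectin receptors Clec4n and Clec4d, which couple to the Fc receptor gamma chain, were at 66.7 and 217 FPKM at 0 h and at 6.504 and 23.3 at 24 h. Mrc1, the mannose receptor often used as an M2 marker, was at 182 and then 341 FPKM, under 2-fold (0.90). Reads of gene families with close copies, among them Pilr, Sirpb1 and Ms4a, may be split between members, and several of these have overlapping exons.

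Integrins had calls both ways, 2 higher and 4 lower of 17, while adhesion and scavenger receptors had none higher. Itgax, which encodes the integrin alpha chain CD11c, was at 35.1 and then 355 FPKM (3.31), and Itgb3 at 4.52 and then 20.4 (1.95). Itgal, the alpha chain of LFA-1, was at 37.1 and then 5.47 (−2.56). Among adhesion and orphan G protein coupled receptors 10 of 30 were lower and none higher, including Adgre1, the gene of the macrophage marker F4/80 (1150 FPKM, then 361). The scavenger receptor Marco was at 32.6 and then 2.23 (−3.38) and Stab1 at 107 and then 23.5 (−2.14), in a list with 6 lower of 17. Of 18 purinergic genes 6 were lower and 2 higher, with a median of −0.27. The higher ones were P2ry1 at 1.74 and then 14.5 FPKM (2.49) and the adenosine receptor Adora2b at 0.49 and then 5.49 (2.12). The lower ones included the ADP receptor genes P2ry12 (3.50, then 0.32) and P2ry13 (3.03, then 0.24), P2ry2 (3.81, then 0.78) and the ATP-gated channel gene P2rx7 (35.1, then 12.5).

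Interferon-stimulated genes were lower nearly throughout. All 45 kept members had negative differences, 40 were 2-fold lower and the median was −1.76. Ifit3 was at 180.2 FPKM at 0 h and 4.43 at 24 h (−5.06), Ifit2 at 90.4 and then 5.35 (−3.85), Rsad2, an antiviral enzyme, at 27.1 and then 2.89 (−2.86), and Mx1, an antiviral GTPase, at 32.3 and then 3.60 (−2.85). The interferon-inducible GTPases that attack pathogen vacuoles gave 11 lower of 15 (median −1.16), led by Iigp1 (22.6, then 3.49). Taking both lists as 1 set, 51 of 60 genes were lower, none was higher, and 59 had a negative sign. In the regulator list Irf7 (50.5, then 7.50), the RNA sensor Ddx58 (22.7, then 6.29) and the DNA sensor Zbp1 (18.5, then 5.95) were lower. Socs1, an inhibitor of interferon receptors too, was the single higher member of that list. A set of Ifitm and HIN-200 genes, chosen after their values were seen, gave 14 lower of 15, with Ifitm3 at 596 and then 79.2 FPKM (−2.90).

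The 0 h cells thus held high levels of these transcripts with no interferon named in the labels, and their summed level was 2285 FPKM in WT and 3035 FPKM in the knockout. Ifit3 was at 309 FPKM in the knockout at 0 h and 9.12 at 24 h, and Mx1 at 58.4 and 6.06. In that pair 43 of 45 members of the interferon list were lower, where 5.99% of all 11577 kept genes were 2-fold lower and 5.16% higher.

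Promoter windows were found for 8254 of the kept genes. The ISRE was held by 12.2% of the windows of lower genes, 2.34% of those of higher genes, 3.40% of those of all kept genes and 3.44% of all RefSeq windows. In the interferon-stimulated list it was 56.8% of 44 windows, and in the GTPase list 81.8% of 11. The STAT6 palindrome was in 7.43% of the windows of higher genes, 5.799% of lower and 5.39% of kept genes, and 6.95% of all windows. It was in 6 of 20 windows of the textbook IL-4 list, and also in 8 of 44 of the interferon-stimulated list (18.2%). The share of windows with the STAT6 letters among higher genes was therefore close to that of all RefSeq windows and somewhat above that of kept genes. The ISRE share of lower genes stood well above both of its counterparts. Sites further away were not searched.

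**Figure D3:**
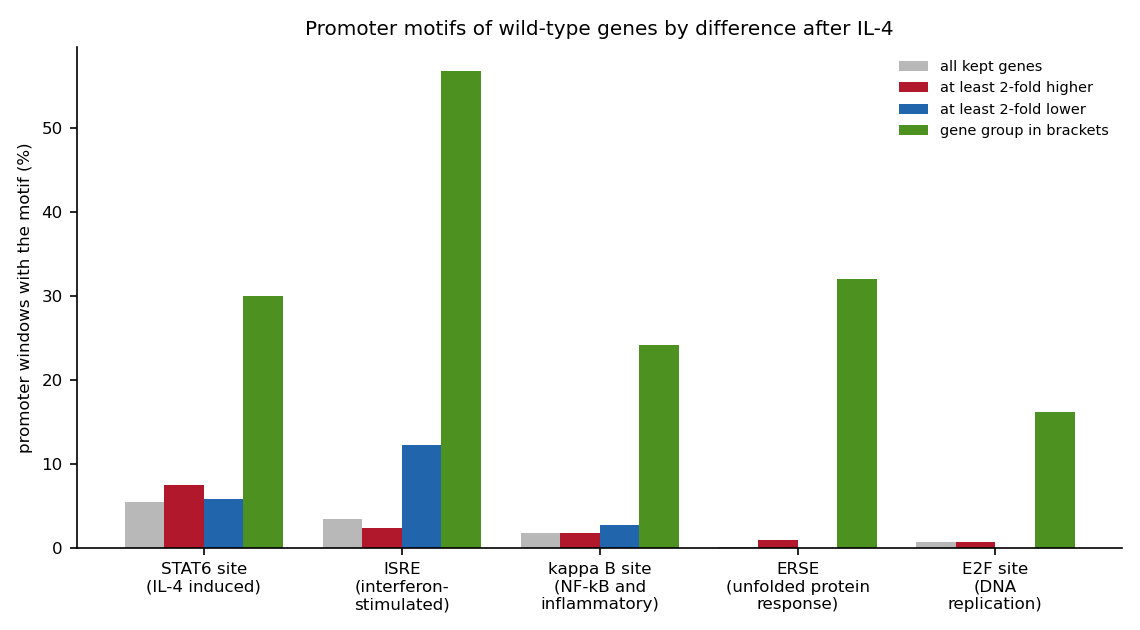
Percent of promoter windows (250 bases before to 50 after the start) that hold each motif on either strand, for all kept genes (grey), genes 2-fold higher (red), genes 2-fold lower (blue) and the gene group in brackets (green). The ISRE bar of the lower genes, 12.2%, stands above that of all kept genes, 3.40%, and the STAT6 bars of all but the IL-4 list lie between 5.39% and 7.43%.

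Lists of bacterial sensing had more members 2-fold lower than higher, though most members were under 2-fold. Cd14, which passes lipopolysaccharide to TLR4, was at 197.5 and then 14.99 FPKM (−3.63), Tlr9 at 35.2 and then 6.203 (−2.33) and Tlr2 at 31.8 and then 7.17 (−2.01), and 6 of 24 genes of the Toll-like receptor list were lower with none higher. NF-kB genes and targets gave 10 lower and 2 higher of 29. The 2 higher were Tnip3, an inhibitor of NF-kB (5.22, then 21.1), and Ier3, an early survival gene (14.4, then 44.8). The inflammasome sensor Nlrp3 was at 11.3 and then 3.14 FPKM (−1.57), and Ripk3, the kinase of necroptosis, was higher at 5.72 and then 16.1 (1.35).

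Lysozymes and neutrophil-type antimicrobials gave 16 lower of 23 (median −1.42), and the 1 higher was Chil3. Camp, the cathelicidin gene, was at 90.9 and then 18.2 FPKM (−2.26) and Ngp, a neutrophil granule gene, at 596 and then 138 (−2.10). Of 12 neutrophil markers, 8 of which are also in the antimicrobial list, 11 were kept, 7 were lower, and their summed level was 3375 FPKM at 0 h and 1097 at 24 h. Ly6g was at 0.65 FPKM at 0 h and listed at 0 at 24 h, while Csf3r, the G-CSF receptor that monocytes also carry, was at 45.2 and 44.99. Mmp8 (8.17, then 8.64), Cxcr2 (1.00, then 1.42) and Mpo (24.6, then 19.3) were also under 2-fold. The part of these cells in the antimicrobial result was not tested.

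Antigen presentation by MHC class II was higher in part. Among 15 kept members 6 passed 2-fold upward, none downward, and the median was 0.40. They are the peptide loaders H2-DMa (40.2, then 136.3 FPKM), H2-DMb1 (49.5, then 160.3) and H2-DMb2, the class II transactivator Ciita (7.53, then 20.7), the invariant chain Cd74 (974, then 2279) and the thiol reductase Ifi30. The classical chains themselves stayed under 2-fold, H2-Ab1 at 290 and then 470 (0.69) and H2-Aa at 384 and then 507 (0.40). Of dendritic cell markers, Itgax and Batf3 were higher, and 6 of 9, Flt3, Zbtb46, Xcr1 and Clec9a among them, were under 1 FPKM in both WT libraries. The costimulatory ligand genes Icosl (3.34, then 0.15) and Cd80 (4.44, then 1.45) were lower.

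Of 21 arginine and polyamine genes 4 were higher, Arg1 included, and 1 lower. Beside Slc7a2, the polyamine synthase Srm was at 5.398 and then 13.9 FPKM (1.22) and Eif5a, the translation factor that carries the polyamine-derived residue hypusine, at 94.6 and then 328 (1.79). The lower member was Paox, a polyamine oxidase, at 5.95 and then 2.38 (−1.04). Glycolysis genes gave 6 higher and 1 lower of 26 (median 0.59), with Pfkp, a phosphofructokinase, at 3.22 and then 17.3 (2.11), the lactate carrier Slc16a1 at 2.05 and then 12.1 (2.11) and Pgk1 at 53.9 and then 175 (1.68). The lower one was Pfkfb3 (11.1, then 3.07), whose product stimulates glycolysis. No gene of the pentose phosphate and nucleotide sugar list passed 2-fold, of 25 kept, where 4.76% of all kept genes were higher and 6.26% lower.

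Most mitochondrial genes had small positive differences, where 52.0% of all kept genes had a positive difference. Of 80 nuclear genes of the respiratory chain and ATP synthase, 75 had positive differences, 15 were 2-fold higher and none was lower (median 0.71). Cytochrome c, Cycs, was at 9.77 and then 29.5 FPKM (1.502), Cyc1 of complex III at 30.1 and then 83.6 (1.44) and Atp5b at 68.0 and then 197.1 (1.52). Complex I lay lowest among the complexes, with 2 of 37 past 2-fold (median 0.56), and complex IV with cytochrome c highest (0.80). All 13 mitochondrially encoded protein genes had positive differences (median 0.69), and genes of the mitochondrial chromosome took 6.28% of all FPKM at 0 h and 9.01% at 24 h. In the tricarboxylic acid cycle list 30 of 35 were positive and 4 past 2-fold, led by Idh3a (4.08, then 14.5). The lower member was Glul, glutamine synthetase, at 177 and then 44.9 FPKM (−1.95). Fatty acid oxidation, often tied to alternative activation, had 24 positive of 31 and a median of 0.13. None of the 31 was 2-fold higher and 1 was lower, against 4.76% and 6.26% of all kept genes. The coactivator gene of this pathway, Ppargc1b, was nonetheless at 0.43 and then 6.05 (2.30).

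Lipid genes went both ways. Fatty acid synthesis and desaturation gave 5 higher of 20 and none lower, with the desaturase Scd2 at 9.67 and then 55.7 FPKM (2.41). Cholesterol synthesis gave 24 positive of 29 (median 0.44), of which Idi1, Cyp51 and Sqle passed 2-fold, between 1.08 and 1.14, and Mylip, the ligase that degrades the LDL receptor, was lower (−1.68). Among LXR targets 7 of 17 were lower and 4 higher. Apoc2, Apoc1 and Apoe, next to each other on chromosome 7, were each lower, Apoe from 4407 to 2125 FPKM (−1.05). Of the sterol efflux pumps, Abca1 was at 127 and then 53.9 (−1.22), and Abcg1 was higher, at 59.5 and then 122.2 (1.03). Eicosanoid genes went both ways, with the prostacyclin receptor Ptgir at 2.47 and then 19.1 FPKM (2.53) and Ptgs1, the constitutive cyclooxygenase, at 12.5 and then 54.1 (2.03), but Hpgd, which inactivates prostaglandins, at 25.1 and then 2.96 (−2.72).

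Of 26 iron and heme genes 3 were higher and 7 lower. Tfrc, the transferrin receptor that imports iron, was at 35.2 and then 166.2 FPKM (2.21). Slc40a1, the exporter ferroportin, was at 40.2 and then 4.81 (−2.83), and the iron-storage gene Fth1 was also lower (−1.19). Of 32 glutathione and thioredoxin genes none was 2-fold higher and 2 were lower (6.25%), against 4.76% and 6.26% of all kept genes.

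Among lists of genes that make and fold protein, ribosome biogenesis and the chaperones of the endoplasmic reticulum held most of the members past 2-fold. In ribosome biogenesis 13 of 36 were 2-fold higher and 35 had positive differences (median 0.79), with Nop16 at 4.87 and then 17.4 FPKM (1.65) and Dkc1, the pseudouridine synthase, at 2.15 and then 7.83 (1.49). The 85 cytosolic ribosomal protein genes themselves had none past 2-fold and a median of 0.13. All 34 proteasome genes had positive differences but none passed 2-fold (median 0.35). Of 30 unfolded protein response and endoplasmic reticulum chaperone genes, 8 were higher and 1 lower. Pdia4, a disulfide isomerase, was at 33.1 and then 141.6 FPKM (2.06), Sdf2l1 at 29.8 and then 125.2 (2.03), and Herpud1, of the degradation arm, at 28.05 and then 10.7 (−1.31).

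The endoplasmic reticulum stress element (ERSE), CCAAT and CCACG with 9 bases between, which NF-Y and ATF6 bind, was in 32.0% of the 25 windows of the chaperone list and in 0.11% of those of all kept genes. This search was reported after its result was seen. The 9 sites, in 8 genes of that list, follow in the orientation of the element from the gene with the largest difference down, with the fixed letters in capitals.

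Creld2: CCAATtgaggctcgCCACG
Calr: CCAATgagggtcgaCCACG
Pdia6: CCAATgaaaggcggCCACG
Hsp90b1: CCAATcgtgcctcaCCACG
Hsp90b1: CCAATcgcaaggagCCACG
Hspa5: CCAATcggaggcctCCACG
Dnajc3: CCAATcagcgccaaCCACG
Syvn1: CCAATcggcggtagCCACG
Canx: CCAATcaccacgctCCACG

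Of the 8 genes, 4 were 2-fold higher: Creld2 (1.66), Calr (1.5003), Pdia6 (1.42) and Hsp90b1 (1.28), the last with an element on each strand. Hspa5, which encodes the chief chaperone BiP, was at 118.4 and then 231.2 FPKM, just short of 2-fold (0.96). Canx, calnexin, was at 97.7 and then 123.7 (0.34). The other 4 genes with the element, Canx among them, were under 2-fold. The first site, of Creld2, lies at chr15:88819520-88819538, and that of Calr at chr8:84847075-84847093, both on GRCm38.p6. They begin 126 and 162 bases before the start of the transcript, on the strand opposite to the gene.

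Replication genes had mostly positive differences, and most were under 2-fold. Of 39 replication genes 36 were positive and 5 were 2-fold higher (12.8%, against 4.76% of all kept genes), with a median of 0.58. Pcna, the polymerase clamp, was at 74.0 and then 214.4 FPKM (1.52) and Mcm5 of the helicase at 6.18 and then 17.3 (1.35). Of 28 mitosis genes 26 were positive and none passed 2-fold (median 0.31), and Cdk1 was at 2.57 and then 4.14. The whole mitosis list summed to 71.6 FPKM at 0 h and 91.3 at 24 h. Ccnd1, cyclin D1, was at 6.66 and then 29.2 FPKM (1.98), and the inhibitor Cdkn1a was higher as well (30.7, then 76.6). Of 17 kept Bcl2 family genes 3 were 2-fold lower (17.6%, against 6.26% of all kept genes) and none was higher. Pro-apoptotic Bmf (10.0, then 1.578) and Pmaip1 (6.07, then 1.62) were lower, and so was Bcl2l2 (6.81, then 1.80), which has overlapping exons.

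Matrix, clotting and fusion genes held some of the large differences. Fn1, fibronectin, was at 9.40 and then 96.9 FPKM (3.24) and Thbs1, thrombospondin 1, at 78.5 and then 12.2 (−2.60). Among proteases, Adam8 (73.0, then 380) and Mmp13 (2.79, then 11.1) were higher and Mmp14 (23.5, then 6.25) and Mmp9 (10.5, then 3.38) lower. The clotting factor genes F7 (19.2, then 102.9) and F10 (10.6, then 70.4) are neighbours on chromosome 8, in a run of 5 genes that were all 2-fold higher. The fusion genes Ocstamp (0.04, then 22.4) and Dcstamp (2.07, then 37.6), needed for osteoclasts and giant cells, were higher. Atp6v0d2, a proton pump subunit of fusing cells, was at 231 and then 475 (1.04). Of the lysosomal hydrolase list 2 of 46 passed 2-fold, both lower, namely Sgsh (−1.80) and Ctsc (−1.25).

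Transporters were divided. Over 5 groups of solute carriers 13 of 135 genes were higher and 17 lower, and the median was −0.01. Beside those already named, the zinc exporter Slc30a4 was at 2.97 and then 33.5 FPKM (3.12), the aspartate-glutamate carrier Slc25a13 at 3.01 and then 18.98 (2.32) and the glutamine carrier Slc1a5 at 4.66 and then 19.02 (1.82). The lysosomal proton-coupled carrier Slc36a1 was at 15.4 and then 3.45 (−1.88). Aldh1a2, which makes retinoic acid, was at 0.27 and then 9.75 (3.08).

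**Figure D4:**
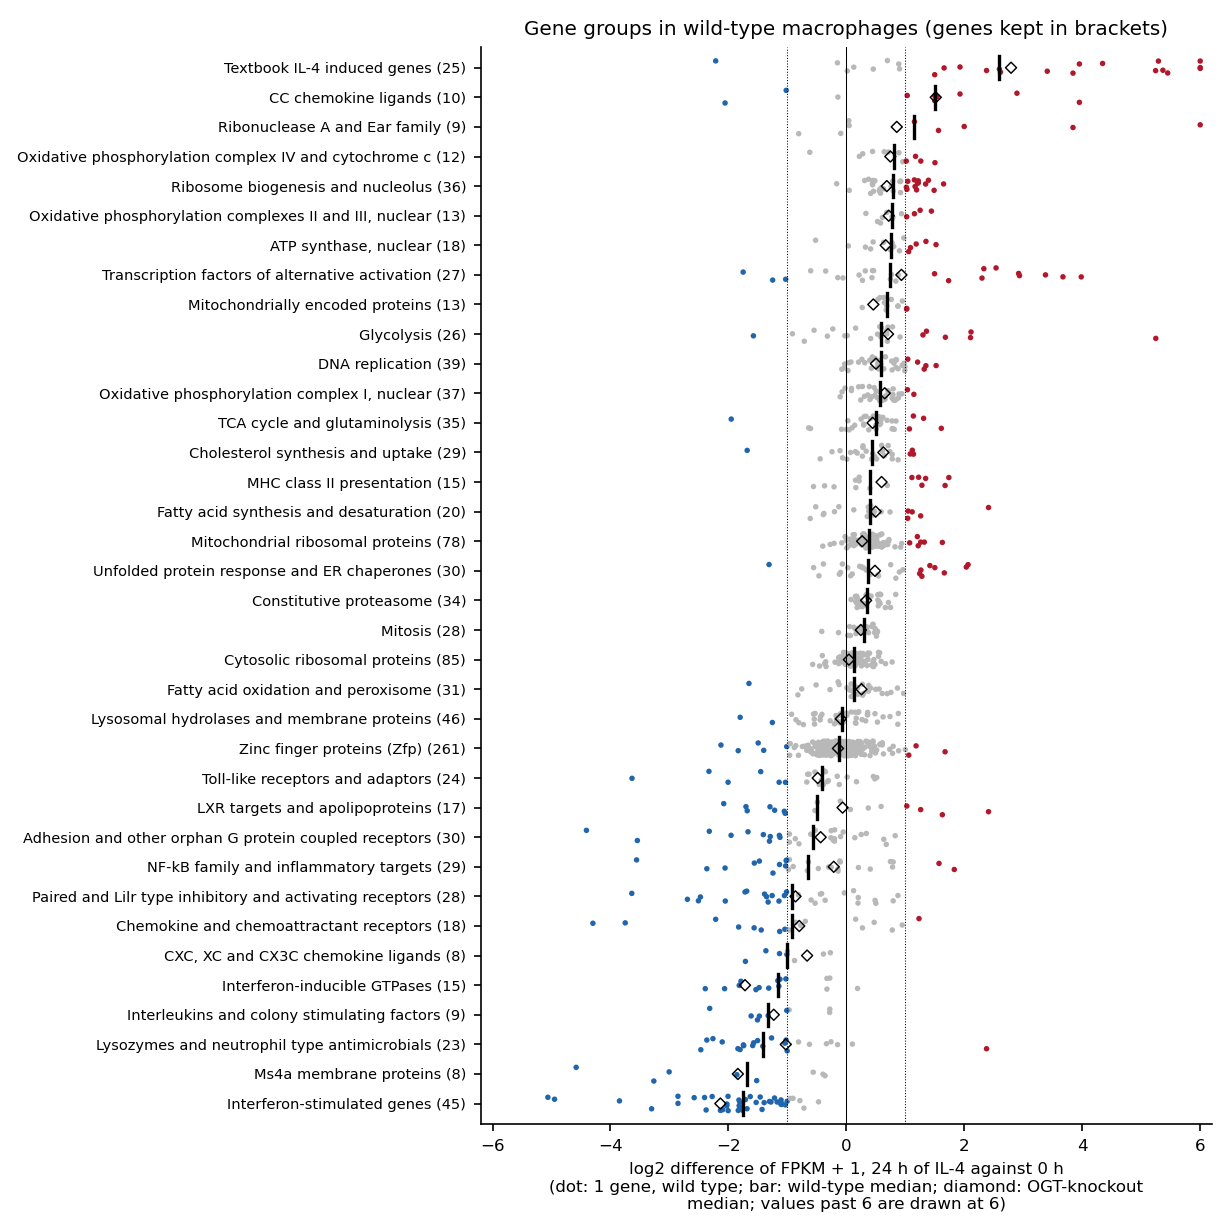
Log2 difference (x axis) of each kept member of 36 gene groups in WT, red where at least 2-fold higher and blue where at least 2-fold lower, with the WT median as a bar and the OGT-knockout median as an open diamond. The median runs from 2.59 for the textbook IL-4 list to −1.76 for interferon-stimulated genes, and the proteasome and cytosolic ribosomal groups are narrow bands with no member past 2-fold.

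Some genes past 2-fold lay beside a neighbour with the same call. Of 473 higher protein-coding genes 90 (19.03%) had an adjacent kept protein-coding gene that was also higher, and 9.10% of all 10037 kept protein-coding genes had such a neighbour. Of 628 lower ones 185 (29.5%) had a lower neighbour, as had 11.7% of all. The longest runs, of 5 genes each, were the Ifit cluster on chromosome 19 and a pair of runs of HIN-200 genes on chromosome 1, all lower, and the run with F7 and F10. Tandem families with similar sequence make up many of the lower runs, where fragments can be assigned to more than 1 copy.

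Markers of other cell types that marrow cultures can hold were present to different extents. Besides the neutrophil markers above, 6 of 9 monocyte markers were kept, with Ccr2 at 14.3 and 16.02 FPKM and Ly6c2 at 11.98 and then 2.18. Of 7 B cell markers 5 were under 1 FPKM in both libraries, Ms4a1 and Pax5 among them, but Ighm was at 119 and then 9.05 FPKM, and the summed level went from 132.5 to 13.9. Of 10 T and NK cell markers 8 were under 1 FPKM, Cd3e included, and Cd4 was at 24.6 and then 2.85. No erythroid marker was kept, and the megakaryocyte and platelet markers, 5 of 7 kept, summed to 102.5 and 49.9. All 10 macrophage markers were kept, 6 of them 2-fold lower, and their sum, most of it Lyz2, went from 18868 to 6460 FPKM. Csf1r, the M-CSF receptor, was at 760 and 610 FPKM (−0.32), so not all markers of the cell type were 2-fold lower.

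The knockout pair gave a second reading of the same interval. Of the 556 genes higher in WT, 424 were also 2-fold higher in the knockout (76.3% of the WT genes and 71.0% of the knockout ones) and 529 had the same sign. Of the 732 lower genes 497 were also 2-fold lower (67.9% and 71.7%) and 698 had the same sign. Of the 40 genes with the largest WT differences, 38 had the same call. The exceptions were Pet117 and Mir142hg, whose large differences rest on 1 library each: Pet117 was at 13.4 FPKM in WT at 0 h, near 0 at 24 h, and at 9.83 and 12.7 in the knockout, and Mir142hg reached 17.1 only in WT at 0 h. Some group counts were also close, with 17 of 26 textbook IL-4 genes, 15 of 80 respiratory genes and 6 of 15 MHC class II genes higher in the knockout pair. Others were less close. Ribosome biogenesis gave 7 of 36 higher there against 13 of 36 in WT. NF-kB genes and targets gave 5 of 28 lower there against 10 of 29, and LXR targets 4 of 17 against 7 of 17. Whether the genotypes differ was not tested.

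**Figure D5:**
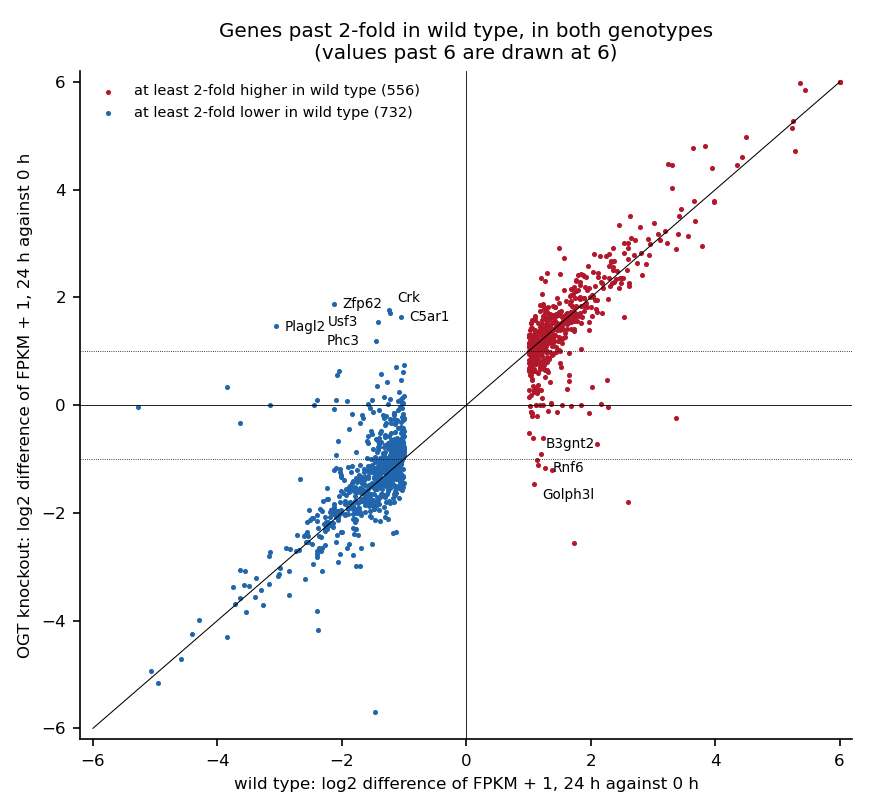
Log2 difference of FPKM + 1 in WT (x axis) and in the OGT knockout (y axis) for the 556 genes higher (red) and 732 lower (blue) in WT, with the line of equality. Points lie mostly in the quadrants of equal sign, and the 9 labelled protein-coding genes passed 2-fold in opposite directions.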

How the data were processed

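RNA came from 4 macrophage cultures, 1 library each, each from 1 µg of RNA, prepared per the labels with the SMARTer kit for mRNA sequencing. The deposited table gives FPKM per gene, read as FPKM from its values, and the submitters' processing notes name STAR, StringTie and GRCm38, with no versions. Symbols came from the GENCODE annotation (147 of 52550 genes had none), and rows of 1 symbol were summed. Differences are log2 ratios with a pseudocount of 1 FPKM, for genes at 1 FPKM or more in either library (python 3.11.15, pandas 2.3.3, numpy 2.4.6, matplotlib 3.10.9). A gene was called at 2-fold. The arithmetic was tested on simulated data. Read depth is not in the table: from single-exon genes, 1 FPKM on a 2 kb transcript was estimated at 40.4 to 44.0 fragments.

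Members and gene lists were chosen with earlier results of these data known. Named were 4 markers, the 20 largest differences each way at 5 FPKM or more, leaving out predicted genes, antigen receptor segments, small RNAs and pseudogenes, and up to 5 genes per list. Other genes, runs of neighbours, genes crossing from under 1 to 10 FPKM, large FPKM changes and ERSE sites were named after their values were seen. Some genes are not reported here.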

Additional observations from a re-analysis of the deposited data

Results flagged for a closer look

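Of the genes past 2-fold in WT, 14 were past 2-fold the other way in the OGT-knockout pair, 9 of them protein-coding and not predicted genes. Each pair is 1 library a time, and the difference between genotypes was not tested. C5ar1, the receptor for complement C5a, had a log2 difference of −1.04 in WT (103.8 FPKM, then 49.9) and 1.64 in the knockout (12.7, then 41.7). The knockout thus began lower and ended near the WT level. Plagl2, a zinc finger transcription factor, had −3.05 in WT (21.8, then 1.74) and 1.46 in the knockout (2.74, then 9.32). Zfp62 had −2.13 and 1.88, Phc3, a Polycomb protein, −1.44 and 1.19, Usf3 −1.41 and 1.55, and the adaptor Crk −1.24 and 1.76. On the other side, the ubiquitin ligase Rnf6 had 1.26 and −1.17, the glycosyltransferase B3gnt2 1.14 and −1.03, and Golph3l 1.09 and −1.46, the last 2 with overlapping exons.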

How the results depend on the processing

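A pseudocount of 5 FPKM gave 253 genes higher and 304 lower, and one of 0.1 FPKM gave 845 and 1126. Leaving out genes with overlapping exons, an alternative chosen after seeing the data, left 370 higher of 7556. With a filter at 5 FPKM the counts were 441 and 538, and after rescaling to a median ratio of 1 they were 496 and 799. Of 366 named genes past 2-fold, 130 were under it at a pseudocount of 5. None of the 511 named genes changed sign when the 24 h library was rescaled, by 0.958 or 0.965. A changed pseudocount, filter or gene set cannot change a sign, so those alternatives say nothing about direction. The median of conventional dendritic cell markers was 2.92 over 3 kept genes and −0.20 over all 9 with no filter. No paired analysis was possible because each group is 1 library and no test was made. Low levels limit the folds given here, since the pseudocount sets them there.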
